A study of Mus musculus with 16 samples.

Results

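The eukaryotic translation initiation factors are the proteins that bring the ribosome to an mRNA and set it on its start codon, and their genes carry the prefix Eif. A symbol beginning with Eif followed by a digit from 1 to 6 was found on 55 of the 24411 rows of the deposited mouse tables, and 54 of these had a mean TPM (transcript abundance corrected for transcript length and scaled to the same total in every library) of at least 1 over the 16 libraries and were analysed. The symbol that did not meet this level was Eif4e1b. The rule used levels over all libraries and no difference between groups, and all 54 genes were among the 16665 that passed the filter on low counts.

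Initiation begins when eIF2, bound to GTP and the initiator methionyl-tRNA, joins the small ribosomal subunit together with eIF1, eIF1A and eIF3, while the eIF4F complex, made of the cap-binding protein eIF4E, the scaffold eIF4G and the RNA helicase eIF4A, prepares the capped mRNA. The eIF4E-binding proteins hold eIF4E back until mTOR phosphorylates them, and kinases that phosphorylate eIF2 alpha slow the exchange factor eIF2B when cells are stressed. MYC family proteins are known as activators of genes for ribosomes and translation factors, and neuroblastoma with MYCN amplification is a childhood tumor of the sympathetic nervous system.

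The study asked how the loss of 1 functional allele of Runx1t1, a transcriptional co-repressor, alters the path from sympathetic ganglion to neuroblastoma in mice that carry the Th-MYCN transgene, in which the tyrosine hydroxylase promoter drives human MYCN in cells of the neural crest lineage. Of the 16 libraries 12 came from celiac ganglia, taken at 2 weeks of age: 4 transgene-free ganglia with wild-type Runx1t1 (Runx1t1 +/+), 3 transgene-free ganglia labelled Runx1t1 het, 3 ganglia of mice homozygous for Th-MYCN with Runx1t1 +/+, and 2 ganglia of mice homozygous for Th-MYCN and labelled Runx1t1 het. The last 4 libraries were tumors of mice homozygous for Th-MYCN with Runx1t1 +/+, whose age the labels do not give. The Runx1t1 allele was inactivated by an insertion and is present in every cell of the animal, and the transgene is present from development onward, so neither alteration was induced at a chosen time. The labels do not say that replicates came from separate animals, so the p-values measure the spread between these samples.

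The libraries held 10692299 to 38618757 counts. Runx1t1 itself was at 2.78 to 4.41 TPM in transgene-free Runx1t1 +/+ ganglia and 4.36 to 6.28 TPM in transgene-free ganglia labelled het, at 7.90 to 70.3 TPM in Th-MYCN Runx1t1 +/+ ganglia and 8.83 to 16.9 TPM in those labelled het, and at 29.5 to 55.8 TPM in tumors, so its RNA did not separate the het libraries from their wild-type counterparts. The human transgene has no row among the mouse genes. The sympathetic markers Th and Dbh were present in every library (Th from 172 TPM, Dbh from 44.1 TPM), whereas replicate 2 of the transgene-free Runx1t1 +/+ ganglia stood apart, with summed lymphocyte markers of 827 TPM against at most 7.75 TPM in the other 15 libraries. Among the 12 ganglia it also had the highest summed markers of myeloid cells (2310 TPM) and endothelium (449 TPM) and the lowest of sympathetic neurons (8234 TPM). Of the members called in tumors against transgene-free ganglia, 42 of 43 kept their call without this library, Eif1a being the exception, and their log2 fold changes moved by -0.07 to 0.20, the most for Eif4ebp2. The log2 fold changes below include the library unless stated. Tumor replicate 3 stood apart in Alb, the albumin gene of the liver, at 2497 TPM against 0.61 to 25.4 TPM in the other 3 tumors and at most 165 TPM in ganglia. Without it 42, 34 and 35 members changed in the 3 tumor comparisons. With all libraries 43, 36 and 40 members changed, and 61.4%, 34.5% and 45.5% of all genes tested. The share of all genes without this tumor is not given here, so the counts without it are not read as particular to the members. In these bulk samples, fewer cells of a type and less RNA per cell cannot be told apart.

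The 54 Eif genes together took a larger share of the transcript pool in tumors than in ganglia. Their summed TPM was 0.833%, 0.966%, 0.938% and 0.966% of the library total in tumor replicates 1 to 4, a mean of 0.926% ± 0.0632 (SD, n = 4). In transgene-free ganglia the share was 0.661% ± 0.0295 (SD, n = 4) with Runx1t1 +/+ and 0.655% ± 0.00879 (SD, n = 3) in those labelled het. Th-MYCN Runx1t1 +/+ ganglia held 0.775%, 0.642% and 0.757% in replicates 1, 3 and 4, and Th-MYCN ganglia labelled het held 0.657% and 0.694%. All 4 tumors lay above all 12 ganglia, and among the Th-MYCN Runx1t1 +/+ ganglia replicate 3 lay with the transgene-free ones while replicates 1 and 4 lay between those and the tumors. The ribosomal RNA gene Rn45s took 8.57% to 12.8% of counts in tumors, 2.15% to 5.64% in transgene-free ganglia and 8.80% in Th-MYCN Runx1t1 +/+ replicate 1, the ganglion with the highest Eif share. In replicates 3 and 4 of that group it took 4.61% and 4.92%, and in the Th-MYCN ganglia labelled het 3.06% and 2.79%. With Rn45s left out of the TPM sum the Eif share was 0.857% to 1.01% in tumors and at most 0.802% in ganglia.

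**Figure D1:**
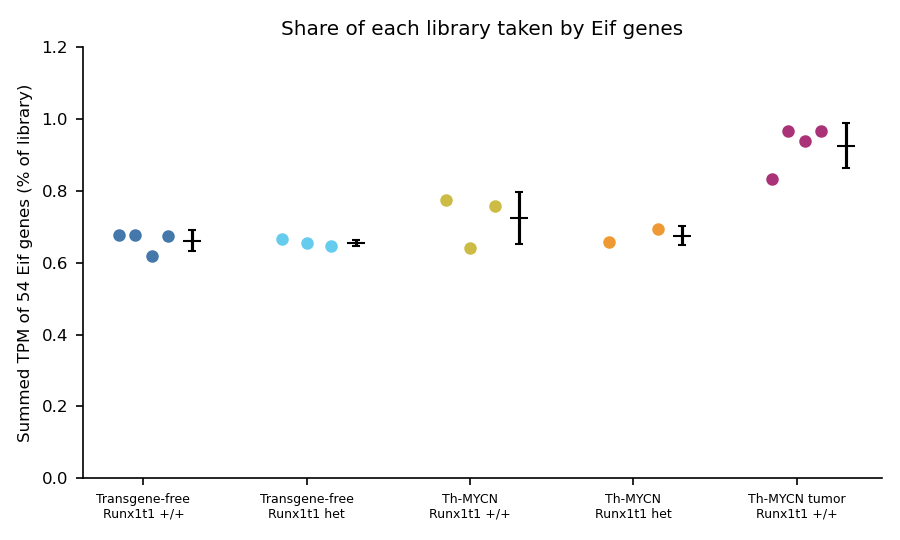
Summed TPM of the 54 Eif genes as a percentage of each library's total (vertical axis, from 0), one point per library in 5 groups, with the group mean and SD as bars beside the points. The 4 tumors lie between 0.833% and 0.966%, above all 12 ganglia, whose highest share is 0.775%.

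In tumors against the 7 transgene-free ganglia, most Eif genes rose and a small set fell. By edgeR's quasi-likelihood test with Benjamini-Hochberg adjustment over all genes, 43 of the 54 changed (79.6%), where 61.4% of all genes tested changed. The directions were unequal, with 38 members higher (70.4%) and 5 lower (9.26%), whereas 30.6% of all genes tested were higher and 30.9% lower. The median log2 fold change was 0.75 over the members and -0.06 over all genes tested. Without the ganglion rich in lymphocyte markers, 45 members changed (where 65.1% of all genes tested did), 42 of them among the 43, and Eif2ak3, Eif3f and Eif4g3 were added. Over 24 other settings 29 of the 43 calls were never lost, and those of Eif1a and Eif1b were lost in most. The scaled counts of the tumors and the transgene-free ganglia did not overlap for 37 members, where 44.1% of all genes tested did not overlap.

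Levels per library are given below in TPM, while fold changes are from counts scaled by TMM, a method that sets the bulk of genes to no change, so a fold change and the TPM beside it need not match. On the TPM scale the median of all genes tested was at a log2 fold change of -0.35, which is 0.29 lower than in the TMM fit, and the members' median was at 0.32. On that scale 37 members were above 0 and 46 were above the median of all genes, and limma on log2(TPM + 1) called 25 members higher and 6 lower, 30 of these 31 shared with the 43. The 31 are 57.4% of the members, below the 61.6% of all genes tested called on that scale, while by direction 46.3% of members were higher against 19.4% of all genes, and 11.1% lower against 42.1%. The 13 calls lost on it were those of Eif1, Eif1a, Eif1ax, Eif2ak4, Eif2b4, Eif2b5, Eif2d, Eif2s2, Eif3h, Eif3k, Eif4e2, Eif4ebp3 and Eif4g1. The genes whose sign differed between the scales, higher after TMM and lower in TPM, were Eif1, Eif1a, Eif1ax, Eif2ak3, Eif2ak4, Eif2b2, Eif2b3, Eif2s3x, Eif3j1, Eif4ebp1 and Eif4g3. Relative to the median of all genes, Eif1, Eif1a, Eif1ax and Eif2ak4, which passed the TMM test, lay above that median on both scales.

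**Figure D2:**
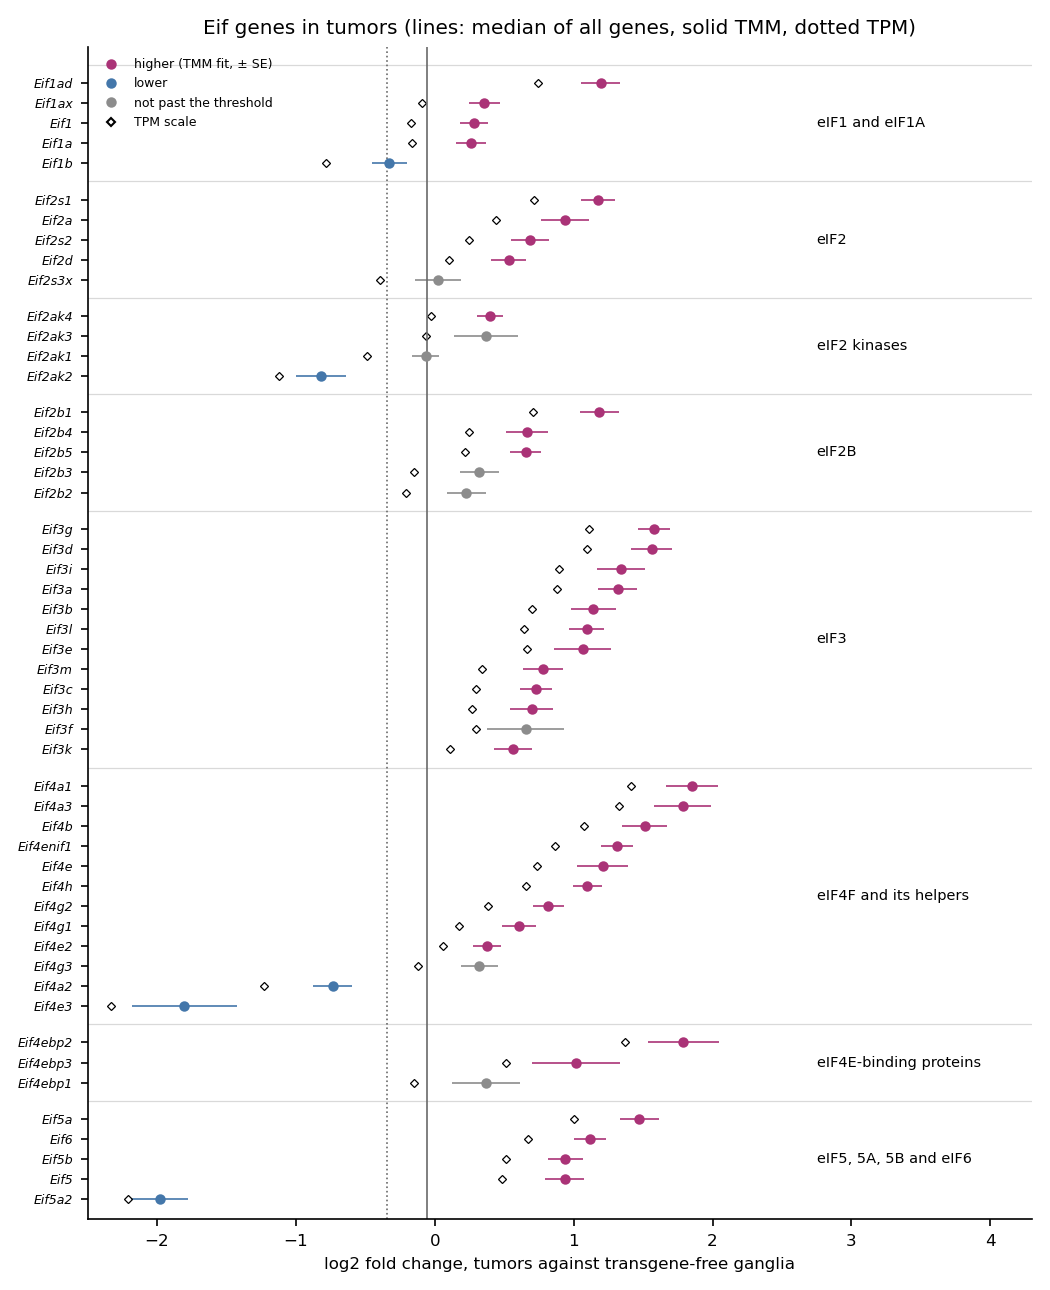
Log2 fold change of each Eif gene in tumors against transgene-free ganglia (horizontal axis), grouped by factor, as circles with ± SE from the TMM fit and open diamonds for the TPM scale, with vertical lines at the median of all genes tested on each scale (-0.06 and -0.35). Eif4a1, Eif4a3 and Eif4ebp2 lie farthest to the right and Eif5a2 and Eif4e3 farthest to the left on both scales. Eif3j1 and Eif3j2 are not drawn because their reads were split between near-identical copies, and Eif2s3y because it followed the presence of the Y-linked gene Ddx3y.

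The eIF4F complex and its helpers held the highest log2 fold change of the members, that of Eif4a1, and 2 of the 5 decreases. Of its 12 members 9 rose, 2 fell and Eif4g3 did not pass the test, where 30.6% of all genes tested rose and 30.9% fell. Eif4a1, the main eIF4A helicase, which unwinds the leader of the mRNA, was at 959, 934, 881 and 965 TPM in tumors, against 311 to 400 TPM (median 343) in transgene-free ganglia. The groups did not overlap, and the log2 fold change was 1.85 ± 0.19 (SE, edgeR adjusted p = 3.13e-06). Eif4a2, the second eIF4A helicase and a close relative of Eif4a1, moved the other way. It was at 187, 121, 149 and 155 TPM in tumors against 280 to 434 TPM (median 355) in transgene-free ganglia. No tumor reached the lowest ganglion, and the log2 fold change was -0.74 ± 0.14 (edgeR adjusted p = 3.95e-04).

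Eif4a3, a helicase of the same family that belongs to the exon junction complex and not to eIF4F proper, was at 180, 264, 209 and 240 TPM in tumors and at 77.7 to 110 TPM in transgene-free ganglia, a log2 fold change of 1.79 ± 0.21 (edgeR adjusted p = 7.33e-06). Eif4b, which stimulates the helicase, was at 258, 328, 314 and 421 TPM in tumors and at 129 to 208 TPM in transgene-free ganglia, a log2 fold change of 1.51 ± 0.16 (edgeR adjusted p = 4.26e-06). Every tumor was above every transgene-free ganglion for both genes. Eif4h, a smaller stimulator of the helicase, rose by a log2 fold change of 1.10, and Eif4enif1, which carries eIF4E into the nucleus, by 1.31.

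The cap-binding proteins parted in the same manner. Eif4e, the major cap-binding protein, was at 55.2, 67.7, 61.6 and 94.0 TPM in tumors and at 36.4 to 48.1 TPM in transgene-free ganglia, with a log2 fold change of 1.21 ± 0.18 (edgeR adjusted p = 6.25e-05). Eif4e3, an atypical member of the cap-binding family, was at 13.4, 16, 7.21 and 2.97 TPM in tumors and at 35.1 to 55.7 TPM in transgene-free ganglia. The groups did not overlap for either gene, tumor replicate 4 had both the highest Eif4e and the lowest Eif4e3 of the 4 tumors, and the log2 fold change of Eif4e3 was -1.80 ± 0.38 (edgeR adjusted p = 9.05e-04). Eif4e3 overlaps another coding gene on its own strand in the GENCODE annotation, so reads of the 2 genes may have been shared. Eif4e2, a cap-binding protein linked to repression, rose by a log2 fold change of 0.38.

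The scaffolds had log2 fold changes between 0.32 and 0.82. Eif4g1, the main eIF4G, was at 306, 378, 357 and 351 TPM in tumors and at 238 to 346 TPM (median 322) in transgene-free ganglia. These TPM ranges overlapped, and after TMM scaling the log2 fold change was 0.60 ± 0.12 (edgeR adjusted p = 7.12e-04), a call that was not made on the TPM scale. Eif4g2, a relative without the eIF4E-binding site that serves cap-independent initiation, rose by a log2 fold change of 0.82 on the TMM scale and was called on both scales. Eif4g3, the second full-length scaffold, was at 146, 106, 106 and 109 TPM in tumors and at 111 to 146 TPM in transgene-free ganglia, and its log2 fold change of 0.32 ± 0.13 did not pass (edgeR adjusted p = 0.0509).

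Among the 3 eIF4E-binding proteins, the repressors of cap-dependent initiation, Eif4ebp2 had the highest log2 fold change. It was at 73.3, 76.0, 84.7 and 92.7 TPM in tumors and at 22.7 to 60.6 TPM (median 29.4) in transgene-free ganglia, and the highest of these ganglia was the one rich in lymphocyte markers, the others reaching 33.8 TPM. The log2 fold change was 1.79 ± 0.26 (edgeR adjusted p = 4.07e-05). Eif4ebp1, the best-studied target of mTOR in this family, was at 53.6, 27.9, 57.6 and 23.5 TPM in tumors and at 32.3 to 61.2 TPM (median 42.0) in transgene-free ganglia. Tumor replicates 2 and 4 were below every transgene-free ganglion and replicates 1 and 3 were within their range, and the log2 fold change of 0.37 ± 0.24 did not pass (edgeR adjusted p = 0.201). Eif4ebp3, the least abundant of the 3, was at 9.37, 6.82, 9.84 and 5.95 TPM in tumors and at 3.31 to 8.19 TPM in transgene-free ganglia, groups that overlap, with a log2 fold change of 1.02 ± 0.32 (edgeR adjusted p = 0.0131). Like Eif4e3, it overlaps another coding gene on its own strand, so its reads may have been shared.

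Most subunits of eIF3, the large scaffold that binds the small ribosomal subunit, rose. Of 14 eIF3 genes 11 rose, none fell, and Eif3f, Eif3j1 and Eif3j2 did not pass the test, where 30.6% of all genes tested rose and 30.9% fell. Eif3g was at 445, 618, 609 and 609 TPM in tumors and at 233 to 285 TPM (median 264) in transgene-free ganglia, a log2 fold change of 1.58 ± 0.12 with the lowest adjusted p of all members (edgeR adjusted p = 4.85e-07). Eif3d, the subunit with a cap-binding activity of its own, was at 237, 363, 330 and 384 TPM in tumors and at 138 to 165 TPM (median 145) in transgene-free ganglia, a log2 fold change of 1.56 ± 0.15 (edgeR adjusted p = 2.11e-06). Eif3a, the largest core subunit, was at 417, 565, 583 and 593 TPM in tumors and at 250 to 331 TPM (median 301) in transgene-free ganglia, a log2 fold change of 1.32 ± 0.14 (edgeR adjusted p = 4.27e-06). In all 3 genes every tumor was above every ganglion of the series and tumor replicate 1 was the lowest tumor.

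Eif3b and Eif3i, which with Eif3d and Eif3g lie at the periphery of the mammalian complex, had log2 fold changes of 1.14 and 1.34. The genes of the structural core besides Eif3a and Eif3f, which are Eif3c, Eif3e, Eif3h, Eif3k, Eif3l and Eif3m, had log2 fold changes of 0.73, 1.07, 0.70, 0.56, 1.09 and 0.78, all past the test after TMM scaling. On the TPM scale Eif3h and Eif3k lay at 0.27 and 0.11 and were not called. Eif3f was at 148 to 176 TPM in tumors and at 93.7 to 283 TPM in transgene-free ganglia, and the value of 283 TPM came from the ganglion rich in lymphocyte markers. Its log2 fold change of 0.65 ± 0.28 did not pass with that library (edgeR adjusted p = 0.0527) and passed without it. The same ganglion had the highest Eif3e, Eif3h, Eif3k and Eif3m of the 12 ganglia, at 201, 316, 296 and 116 TPM.

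The ternary complex factor eIF2 and its exchange factor eIF2B rose in part. Of 6 genes grouped under eIF2 4 rose, and among these Eif2a and Eif2d encode separate factors and not subunits of eIF2. Eif2s1, the alpha subunit that the stress kinases phosphorylate, was at 41.7 to 48.6 TPM in transgene-free ganglia. In tumors it was at 56.7, 83.5, 77.1 and 82.0 TPM, with a log2 fold change of 1.18 ± 0.12 (edgeR adjusted p = 3.41e-06). Eif2s2, the beta subunit, had a log2 fold change of 0.69, Eif2a, a factor for alternative initiation, of 0.94, and Eif2d, which can deliver tRNA without eIF2, of 0.53. The gamma subunit, read as the sum of Eif2s3x and Eif2s3y, lay at 0.09 and did not pass (edgeR adjusted p = 0.547). Of the 5 eIF2B genes Eif2b1, Eif2b4 and Eif2b5 rose. The counts of eIF2 and eIF2B are to be read against all genes tested, of which 30.6% rose and 61.4% changed in either direction. Eif2b5, the catalytic epsilon subunit, was at 85.4, 106, 113 and 110 TPM in tumors and at 62.5 to 98.8 TPM (median 95.0) in transgene-free ganglia, with a log2 fold change of 0.65 ± 0.11 (edgeR adjusted p = 1.65e-04), and was not called on the TPM scale. Eif2b2 and Eif2b3 did not pass, at log2 fold changes of 0.23 and 0.32.

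The 4 kinases that phosphorylate eIF2 alpha did not share a direction. Eif2ak2, which encodes the double-stranded RNA sensor PKR, was at 5.67, 6.09, 7.10 and 6.23 TPM in tumors and at 11.3 to 18.3 TPM (median 14.9) in transgene-free ganglia. All 4 tumors were below these ganglia, and the log2 fold change was -0.82 ± 0.18 (edgeR adjusted p = 0.00125). Eif2ak4, the amino acid sensor GCN2, passed with a log2 fold change of 0.40 on the TMM scale and lay at -0.03 on the TPM scale. Eif2ak1, the heme-regulated kinase and the most abundant of the 4, was at 32.3 to 36.5 TPM in tumors and at 45.4 to 51.3 TPM in transgene-free ganglia, with a log2 fold change of -0.07 ± 0.10 after TMM scaling (edgeR adjusted p = 0.571) and a call as lower on the TPM scale at -0.49. Eif2ak3, the endoplasmic reticulum kinase PERK, had a log2 fold change of 0.37 that did not pass.

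All 5 genes grouped under eIF1 and eIF1A, the factors that guard the choice of start codon, passed the test, 4 of them higher and Eif1b lower. Among these Eif1ad encodes neither factor, only a protein with an eIF1A-like domain. Of all genes tested 61.4% passed, 30.6% higher and 30.9% lower. The calls of 4 of the 5 genes, all but Eif1ad, were lost in 1 or more other settings. Eif1 was at 354, 353, 334 and 287 TPM in tumors and at 349 to 417 TPM (median 369) in transgene-free ganglia, so its TPM were level or lower in tumors while the TMM log2 fold change was 0.28 ± 0.10 (edgeR adjusted p = 0.0245). On the TPM scale the log2 fold change of Eif1 was -0.17, and its call was lost in 8 of 24 other settings. Eif1b, a close relative of Eif1, was at 185, 134, 154 and 131 TPM in tumors and at 185 to 304 TPM (median 255) in transgene-free ganglia. Its log2 fold change was -0.33 ± 0.13 (edgeR adjusted p = 0.0387), a call that was lost in 14 of 24 other settings, with the sign kept. Eif1ad had a log2 fold change of 1.19, and Eif1a and Eif1ax lay at 0.26 and 0.36. The call of Eif1a (edgeR adjusted p = 0.0466) was lost in 20 of the 24 settings, with an adjusted p up to 0.284.

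The factors that act at subunit joining and after it contained the lowest log2 fold change of the members, that of Eif5a2. Eif5a, which helps ribosomes through stretches such as polyproline and is the protein that carries hypusine, was at 649, 1006, 938 and 866 TPM in tumors and at 398 to 462 TPM (median 418) in transgene-free ganglia, a log2 fold change of 1.47 ± 0.14 (edgeR adjusted p = 2.10e-06). Eif5a2, its second isoform gene, was at 5.50, 6.59, 6.28 and 4.48 TPM in tumors and at 15.7 to 37.8 TPM (median 32.0) in transgene-free ganglia, a log2 fold change of -1.98 ± 0.21 (edgeR adjusted p = 3.63e-06). Neither gene overlapped between the groups. Eif5, the GTPase activator of eIF2, Eif5b, the GTPase of subunit joining, and Eif6, which keeps large subunits apart from small ones, had log2 fold changes of 0.94, 0.94 and 1.12, all past the test.

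For 6 pairs of relatives, listed by sequence family, the ratio of TPM within a library was compared, which needs no scaling between libraries. The ratios are made from the same values as the fold changes above, so for tumors they restate the difference between the fold changes of 2 genes without the scaling and are no separate evidence of it. With 2 comparisons each, 12 exact permutation tests were run, and 4 tumors against 7 ganglia allow 330 splits and a two-sided p no lower than 0.00303. Eif4a1 to Eif4a2 stood at 5.13, 7.70, 5.92 and 6.22 in tumors and at 0.837 to 1.33 in transgene-free ganglia, a log2 difference of 2.63 (exact permutation p = 0.00303, adjusted 0.00909). Eif5a to Eif5a2 stood at 116 to 189 in tumors and at 10.5 to 28.7 in transgene-free ganglia, a log2 difference of 3.34 with the same p. The tumors lay above the ganglia in both pairs without overlap.

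Eif4e to Eif4e3 stood at 4.11 to 30.6 in tumors and at 0.728 to 1.04 in transgene-free ganglia, a log2 difference of 3.22 (exact permutation p = 0.00303, adjusted 0.00909). Eif4ebp1 to Eif4ebp2 stood at 0.732, 0.368, 0.680 and 0.254 in tumors and at 0.878 to 1.81 in transgene-free ganglia, a log2 difference of -1.56 with the same p. In every transgene-free ganglion but the one rich in lymphocyte markers Eif4ebp1 was the more abundant of the pair, and in all 4 tumors Eif4ebp2 was. Eif1 to Eif1b differed by 0.61 on the log2 scale with overlapping groups (exact permutation p = 0.00606, adjusted 0.0145), and Eif4g1 to Eif4g3 by 0.30 (exact permutation p = 0.0576, adjusted 0.0987).

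**Figure D3:**
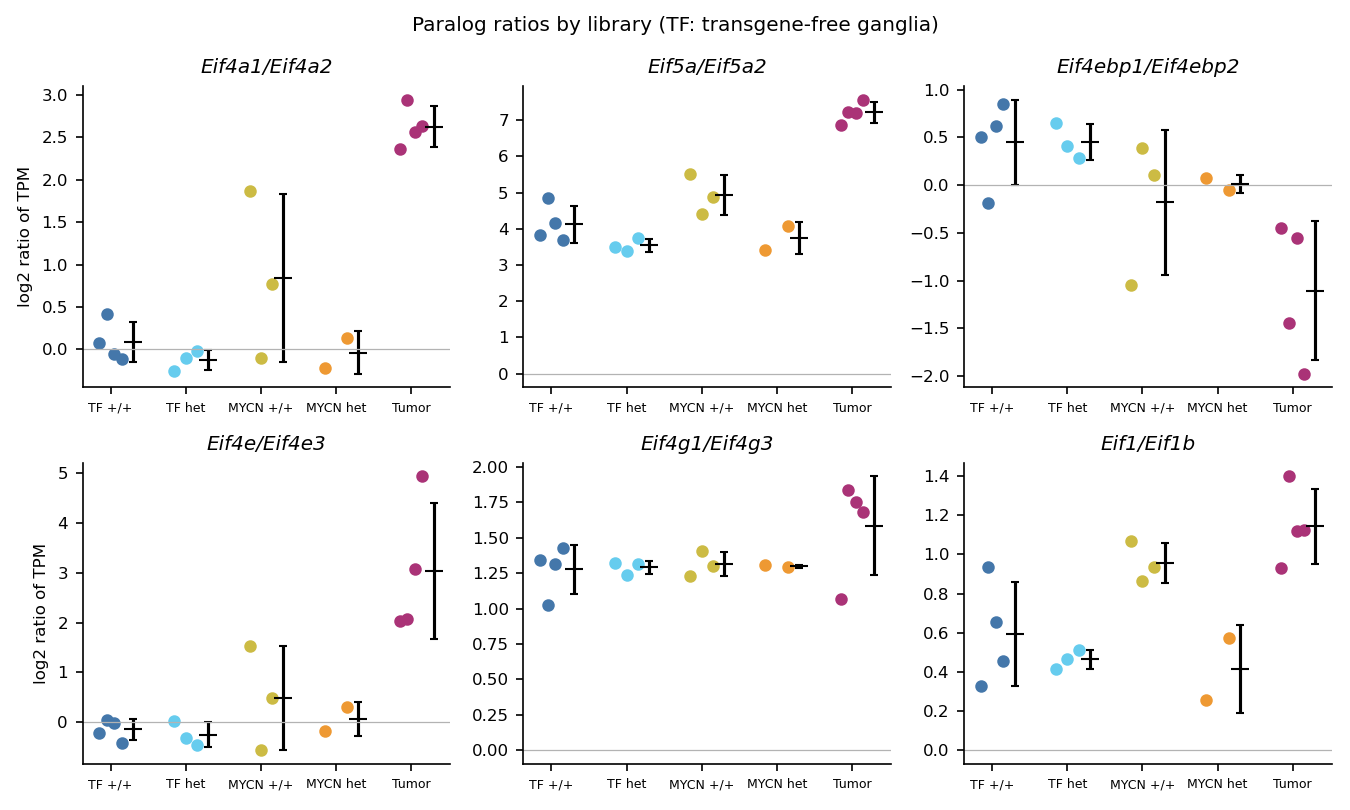
Log2 ratio of the TPM of 2 related Eif genes (vertical axis) in each of the 16 libraries, one panel per pair and one colour per group, with group mean and SD as bars. Tumors lie apart from all transgene-free ganglia for Eif4a1/Eif4a2, Eif5a/Eif5a2, Eif4ebp1/Eif4ebp2 and Eif4e/Eif4e3, and Th-MYCN Runx1t1 +/+ replicate 1 is the ganglion closest to the tumors in each of these 4 panels.

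The tumors were also compared with each group of Th-MYCN ganglia, 2 comparisons that share the 4 tumors with the one above. Against the 3 Th-MYCN Runx1t1 +/+ ganglia 36 members changed, 33 higher and 3 lower, where 34.5% of all genes tested changed, 14% higher and 20.5% lower. The median log2 fold change was 0.64 over the members and -0.008 over all genes tested, and 0.21 and -0.29 on the TPM scale. On the TPM scale limma called 18 higher (33.3%, where 7.24% of all genes tested were) and 5 lower (9.26%, where 30% were), in sum 42.6% of the members against 37.2% of all genes. Without Th-MYCN Runx1t1 +/+ replicate 3 the count was 23 (42.6%, where 21.3% of all genes tested changed), and without replicate 4 it was 25 (46.3%, against 24.4% of all genes). Eif3g had the highest log2 fold change, 1.41 ± 0.15 (edgeR adjusted p = 2.22e-05), followed by Eif3d at 1.28, Eif4b at 1.21, Eif4a3 at 1.17 and Eif4ebp3 at 1.16. The call of Eif4ebp3 (edgeR adjusted p = 0.0414) was lost in 12 of 20 other settings and that of Eif3k in 11, while 19 of the 36 calls were lost in none. The 3 lower genes were Eif4e3 at -1.54 (edgeR adjusted p = 0.0128), Eif5a2 at -1.16 (edgeR adjusted p = 0.00179) and Eif4a2 at -0.61 (edgeR adjusted p = 0.0106). The calls of Eif4e3 and Eif4a2 were lost without Th-MYCN Runx1t1 +/+ replicate 3 and in a fit of only the groups compared, and that of Eif5a2 in none of the 20 other settings. Eif4a1 stood at 1.04 ± 0.24 (edgeR adjusted p = 0.00477).

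Against the 2 Th-MYCN ganglia labelled het 40 members changed, 36 higher and 4 lower, where 45.5% of all genes tested changed, 22% higher and 23.5% lower. The median log2 fold change was 0.80 over the members and 0.07 over all genes tested, and 0.28 and -0.32 on the TPM scale. On that scale 21 members were called higher (38.9%, where 13.4% of all genes tested were) and 6 lower (11.1%, where 34.5% were), in sum 50% of the members against 47.9% of all genes. Without het replicate 1 the count was 23 (42.6%, against 24.8% of all genes), with a single het ganglion left whose spread was taken from the other groups. Eif4ebp2 had a log2 fold change of 1.95 ± 0.40 (edgeR adjusted p = 0.00142), Eif4a3 of 1.82, Eif4a1 of 1.81, Eif3g of 1.74 and Eif4b of 1.71. Eif5a2 was the lowest at -2.04 ± 0.25 (edgeR adjusted p = 3.73e-05), with Eif4e3 at -1.55, Eif4a2 at -0.78 and Eif2ak2 at -0.76, of which the calls of Eif4e3 and Eif2ak2 were lost in 3 and 2 of 18 other settings. Eif4ebp1 passed in this comparison at 0.94 ± 0.35 (edgeR adjusted p = 0.0428), with tumors at 23.5 to 57.6 TPM and the 2 ganglia at 32.2 and 28.1 TPM, groups whose TPM overlap. That call was lost in 11 of 18 other settings, where the log2 fold change went down to 0.32 and the adjusted p up to 0.461. The calls of Eif2b2 and Eif2b4 were lost in 13 and 10 of the 18, and 20 of the 40 calls in none. All 4 tumors held more counts than these 2 ganglia. With a term for library depth in the fit 35 members were called, against 40 without it. Of all genes tested 7300 were called with the term and 7582 without it.

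Within the ganglia no Eif gene passed edgeR's test in any of the 6 comparisons of genotype. These were Th-MYCN against transgene-free with Runx1t1 +/+, with both Runx1t1 genotypes joined and among those labelled het, het against +/+ with and without the transgene, and the interaction of the 2 genotypes. Of all genes tested 0.936% passed in the first, 0.042% in the joined comparison, 0.012% in het against +/+ among Th-MYCN ganglia and 0% in the other 3. The shares of the first 3 named rose without Th-MYCN Runx1t1 +/+ replicate 3, where 10.9% of all genes tested passed in the first, 4.33% in the joined comparison and 1.92% in het against +/+ among Th-MYCN ganglia, and 2, 1 and 1 members passed (3.7%, 1.85% and 1.85%). Members with an unadjusted p under 0.05 numbered 7 in the first (13%, where 19.8% of all genes tested had one), 2 in the joined comparison (3.7%, against 9.44%), 5 in het against +/+ among Th-MYCN ganglia (9.26%, against 12.6%) and 0 among those labelled het, in het against +/+ without the transgene and in the interaction (against 1.45%, 4.12% and 5.62%). DESeq2 called 2 members in the first, where it called 7.71% of all genes tested, and 0 in the rest, where it called 2.14%, 1.58%, 0.084%, 0.03% and 0.186% in the same order. In all 6 comparisons the members' share with an unadjusted p under 0.05 was below that of all genes. These counts are small, the 6 comparisons share ganglia, and no difference between members and all genes was tested.

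The 3 Th-MYCN Runx1t1 +/+ ganglia did not move together. Eif4a1 was at 786, 352 and 616 TPM in replicates 1, 3 and 4, against 400, 373, 311 and 343 TPM in transgene-free Runx1t1 +/+ ganglia. Replicates 1 and 4 lay above all of the controls and replicate 3 lay within them, and the log2 fold change was 0.77 ± 0.23 (edgeR adjusted p = 0.107, adjusted p = 0.0295 with DESeq2). Without replicate 3, where 10.9% of all genes tested passed, it was 1.05 (edgeR adjusted p = 0.00305), and without the ganglion rich in lymphocyte markers 0.83 (edgeR adjusted p = 0.0789). Over 20 other settings the log2 fold change ran from 0.41 to 1.05 and the adjusted p up to 0.621. In ganglia labelled het Eif4a1 was at 336 and 418 TPM with the transgene and at 363, 331 and 343 TPM without it, so 1 of the 2 Th-MYCN het ganglia lay above the controls.

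Eif4g2, the other gene DESeq2 called, was at 304, 252 and 289 TPM in the Th-MYCN Runx1t1 +/+ ganglia and at 245, 203, 224 and 248 TPM in the transgene-free Runx1t1 +/+ ganglia, groups without overlap, where 9.17% of all genes tested did not overlap. Its log2 fold change was 0.34 ± 0.14 (edgeR adjusted p = 0.199, DESeq2 adjusted p = 0.0423), and no other setting tried called it. Eif5a2 was at 12.2, 18.9 and 19.4 TPM in the Th-MYCN Runx1t1 +/+ ganglia, at 32.0, 15.7, 23.0 and 35.5 TPM in the transgene-free Runx1t1 +/+ ganglia and at 37.5 and 28.3 TPM in the Th-MYCN ganglia labelled het. Its log2 fold change was -0.62 ± 0.23 with the transgene (edgeR adjusted p = 0.170) and 0.88 ± 0.27 for het against +/+ among Th-MYCN ganglia (edgeR adjusted p = 0.30), 2 comparisons that share the Th-MYCN Runx1t1 +/+ ganglia. Without the ganglion rich in lymphocyte markers, which had the 15.7 TPM, the first was -0.78 (edgeR adjusted p = 0.0516). The het and +/+ Th-MYCN ganglia did not overlap in Eif5a2, where 30.5% of all genes tested did not overlap.

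Eif4ebp2 was at 73.8, 36.7 and 46.1 TPM in Th-MYCN Runx1t1 +/+ ganglia and at 30.5 and 29.2 TPM in those labelled het, and Eif4ebp1 at 35.8, 48.1 and 49.6 TPM and at 32.2 and 28.1 TPM. Over all 5 Th-MYCN ganglia the ratio Eif4ebp1 to Eif4ebp2 was 0.486 to 1.31 against 0.878 to 1.81 in the 7 transgene-free ganglia, a log2 difference of -0.55 (exact permutation p = 0.0404, adjusted 0.0808 over the 12 tests). Without the ganglion rich in lymphocyte markers the difference was -0.66 (exact permutation test, adjusted p = 0.00952), and leaving out each other library gave adjusted p values up to 0.218. The other 5 ratios did not pass between Th-MYCN and transgene-free ganglia, with adjusted p from 0.170 to 0.765 in exact permutation tests over 792 splits.

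The 2 Th-MYCN Runx1t1 +/+ ganglia with high Eif4a1 also held more RNA of dividing cells. The list of dividing-cell markers holds 10 genes, Mki67 and Top2a among them, and their summed TPM was 1337, 131 and 699 in Th-MYCN Runx1t1 +/+ replicates 1, 3 and 4, 100 and 280 in the Th-MYCN ganglia labelled het, 68.9 to 362 in transgene-free ganglia (up to 98.3 without the ganglion rich in lymphocyte markers) and 1599 to 1911 in tumors. The TPM of 22 of the 54 members, Eif4a1, Eif4a3 and Eif4ebp2 among them, put the 3 Th-MYCN Runx1t1 +/+ ganglia in the order of this sum (40.7%, where 26.2% of all genes tested did), and those of 5 members in the reverse order (9.26%, where 37.2% of all genes tested did). The other 27 members, Eif5a and Eif5a2 included, followed neither order. Tumors also differed from transgene-free ganglia in the other cell type markers: 10 of 10 markers of dividing cells rose, 9 of 10 of glia and 6 of 7 of fibroblasts fell, and of 14 of sympathetic neurons 9 fell and 3 rose. Of the markers tested, 4 of 5 of adrenal cortex, 3 of 6 of endothelium and 1 of 6 of lymphocytes fell, 2 of 7 of myeloid cells rose, and of 5 of chromaffin cells 2 rose and 1 fell, where 30.6% of all genes tested rose and 30.9% fell. The part of these differences in cell make-up in the Eif results was not tested.

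**Figure D4:**
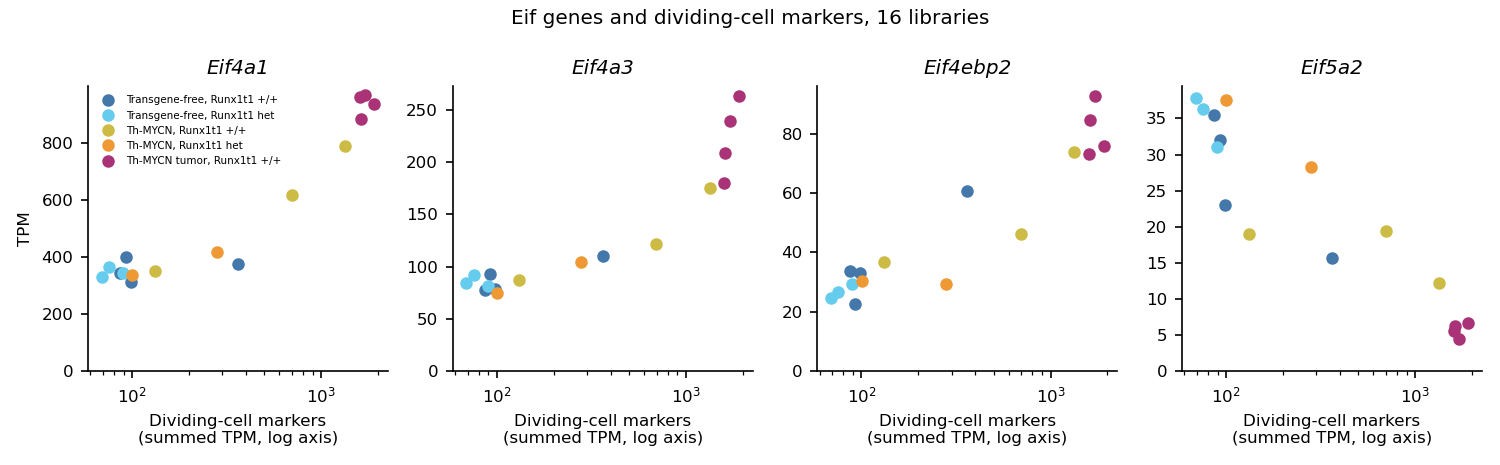
TPM of Eif4a1, Eif4a3, Eif4ebp2 and Eif5a2 (vertical axes, from 0) against the summed TPM of 10 markers of dividing cells (horizontal log axis) in 16 libraries coloured by group. The Th-MYCN Runx1t1 +/+ ganglia run from 131 to 1337 on the horizontal axis, below the tumors, which start at 1599, and overlap the transgene-free ganglia, which reach 362 in the one rich in lymphocyte markers and 98.3 in the others.

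A pair of Eif genes could be read only as a sum with a near-identical copy. Eif3j1 and Eif3j2 both encode the loosely bound eIF3j subunit, and the expected counts were placed on one or the other almost wholly in many libraries: under 1% of the sum was on Eif3j1 in 6 libraries, over 99% in 3, and between these limits in 7. Replicates of a group differed in this, with Eif3j1 at 55.8, 40.5, 0.08 and 0.07 TPM in transgene-free Runx1t1 +/+ ganglia and at 0.01, 57.9, 60.3 and 0.08 TPM in tumors. The sum was far steadier, at 40.5 to 69.8 TPM (median 59.4) in ganglia and 40.5 to 68.1 TPM (median 55.6) in tumors. Tested as 1 row, the sum had a log2 fold change of 0.35 ± 0.13 in tumors against transgene-free ganglia (edgeR adjusted p = 0.0374). That test was run with TMM scaling alone, and neither the TPM scale nor any other setting was tried for the sum. Its TPM overlapped between tumors and ganglia, with the lower median in tumors.

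Eif2s3x and Eif2s3y encode the gamma subunit of eIF2 from the X and the Y chromosome. Eif2s3y was at 27.7 to 32.4 TPM in 3 ganglia and at 21.9 to 22.9 TPM in 3 tumors, the 6 libraries that also held the Y-linked gene Ddx3y, and at no more than 0.13 TPM in the other 10. Eif2s3x was at 79.6 to 104 TPM in those 6 libraries and at 112 to 146 TPM in the 10 without Ddx3y, ranges that do not overlap. No fold change is given for Eif2s3y, since it followed the presence of Ddx3y, and the sum of both genes had a log2 fold change of 0.09 ± 0.13 in tumors against transgene-free ganglia (edgeR adjusted p = 0.547). A term for Ddx3y in the fit left 39 of the 43 members called in that comparison, without Eif1, Eif1a, Eif1b and Eif4ebp3. Of all genes tested that fit called 9607, against 10240 without the term.

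**Figure D5:**
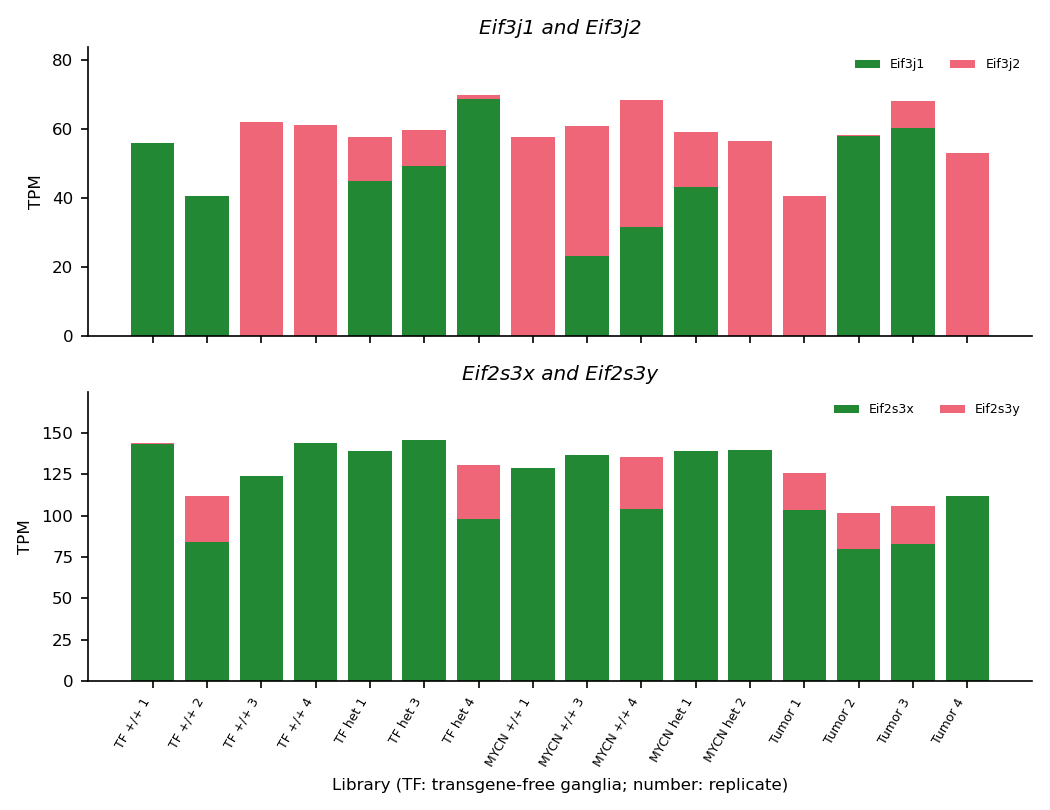
TPM of Eif3j1 and Eif3j2 (top) and of Eif2s3x and Eif2s3y (bottom) stacked for each of the 16 libraries, labelled by group and replicate. The Eif3j reads sit on one copy or the other in 9 libraries while the sum stays between 40.5 and 69.8 TPM, and Eif2s3y appears in 6 libraries.

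The genes that act beside and after the initiation factors were counted from lists, to be read against the 30.6% of all genes tested that were higher, the 30.9% that were lower and the median log2 fold change of -0.06. Of 12 elongation and termination factors 8 rose and none fell in tumors against transgene-free ganglia, with a median log2 fold change of 1.09. Among them Eef1a1, which delivers aminoacyl-tRNA, rose by 1.08 and Eef2, the translocase, by 1.25, whereas Eef1a2, the form of neurons and muscle, had -0.24 and did not pass. Of 25 partners and regulators of initiation factors 12 rose and 5 fell, with a median of 0.42. Dhps and Dohh, the enzymes that make hypusine on eIF5A, rose by log2 fold changes of 0.67 and 0.93, and the poly(A)-binding proteins Pabpc1 and Pabpc4 by 1.56 and 1.79. Impact, which restrains GCN2, changed by -1.85, and Mknk1, a kinase of eIF4E, by -0.99, both past the test.

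Of 14 targets of the integrated stress response, the program that eIF2 alpha phosphorylation sets off, 4 rose and 4 fell, shares close to those of all genes tested, with a median log2 fold change of -0.41. Those that rose were Atf4 at 0.33, the factor at the head of the program, and the enzymes of serine and cysteine metabolism Psat1 at 2.22, Shmt2 at 1.91 and Cth at 2.78. Those that fell were Ddit4 at -1.47, Trib3 at -0.92, Cebpb at -1.75 and Vldlr at -1.95. Of 11 mitochondrial translation factors 8 rose and none fell, with a median of 0.54. No gene of these 4 lists passed in any of the 6 comparisons within ganglia.

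The gene most like Eif5a across the 16 libraries, by Pearson's r of log2(TPM + 1), was Dusp9 (r = 0.984), followed by Lyar (0.981), Ebna1bp2 (0.981), Wdr46 (0.977) and Wdr5 (0.977). For Eif4ebp1, which did not pass in tumors against transgene-free ganglia, the closest were Gdap10 (0.754), 3110001I22Rik (0.754), Lman1 (0.744), Apoc1 (0.738) and Cyp27a1 (0.729), which are lower coefficients. The libraries share their groups and the tumor contrast, so these values are a description over 16 points that are not independent, with no test.

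The E-box CACGTG, the hexamer that MYC family proteins are known to bind, was looked for in RefSeq promoter windows of GRCm38.p6, from 250 bases before to 50 bases after each annotated start. The hexamer is its own reverse complement, so a search of one strand covers both. Windows were held for 43 members and not for Eif1a, Eif2b3, Eif3e, Eif3h, Eif3i, Eif3j2, Eif4e3, Eif4ebp1, Eif4ebp3, Eif4g2 and Eif6. It was present for 10 of the 43 (23.3%), against 10.9% of 12404 tested genes with a window and 8.09% of all 27025 genes with a window. Of members with a window it was present in 7 of 31 that rose in tumors, in 2 of 4 that fell and in 1 of 8 that did not pass.

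The sites outside annotated exons are shown because they sit at both genes of the Eif5a and Eif5a2 pair, which moved in opposite directions, and at Eif4a1 and Eif4g1 of eIF4F and Eif3f and Eif3k of eIF3. Each line gives 30 bases, 5′ to 3′ on the strand of the gene, with the hexamer in capitals.
Eif4a1 (chr11:69672595-69672624, minus strand): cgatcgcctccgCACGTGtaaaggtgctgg
Eif4g1 (chr16:20672661-20672690, plus strand): ggcagtgggtgtCACGTGatggggcggagc
Eif5a (chr11:69921443-69921472, minus strand): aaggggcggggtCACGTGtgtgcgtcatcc
Eif5a2, first site (chr3:28781123-28781152, plus strand): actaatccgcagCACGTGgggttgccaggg
Eif5a2, second site (chr3:28781148-28781177, plus strand): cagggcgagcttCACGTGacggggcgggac
Eif3f (chr7:108934335-108934364, plus strand): caagatatgattCACGTGgtataaatttag
Eif3k (chr7:28981915-28981944, minus strand): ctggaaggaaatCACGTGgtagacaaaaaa

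Eif5a2, with the lowest fold change of the members in tumors, held 2 sites, and Eif5a, its relative that rose, held 1 outside exons and 1 in an annotated exon, so the hexamer was present at genes that moved either way. The matches in annotated exons, in windows of Eif1b, Eif3a, Eif4e, Eif4g1, Eif4h and Eif5a, are not printed. A match describes these letters in the window and does not show that a factor binds there.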

How the data were processed

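RNA of 16 mouse samples was sequenced as paired-end libraries (SMARTer Stranded Total RNA-seq), although the labels call the molecule polyA RNA. The authors aligned reads to mm10 with STAR and quantified genes with RSEM. They deposited RSEM expected counts, not normalized, and TPM, which RSEM scales to the same sum in each library. RSEM shares reads out among near-identical copies, and whether counting used the strand is not given in the sources used here. In the GENCODE annotation 13 members overlap another coding gene, 2 of them on the same strand. Samples were grouped by their labels, and the column headings' "Hom" was read as wild-type Runx1t1, because the labels give no homozygous knockout. No column was left unmapped.

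Expected counts were rounded. R 4.3.3 with edgeR 4.0.16 filtered genes by group (filterByExpr), scaled by TMM and fitted all 5 groups with the quasi-likelihood model, and p-values were adjusted by Benjamini-Hochberg over all 16665 genes with a threshold of 0.05. Joined groups were averaged with equal weight. Ratios used log2 of TPM + 0.1 and two-sided exact permutation tests, adjusted over 12 tests. Python 3.11.15 served for levels, ratios and figures. Expected counts of 10692299 to 38618757 per library set the precision, together with 2 to 4 samples per group. The fit was tested on simulated data with known changes. Alternatives were other normalizations and filters, DESeq2 1.42.0, limma 3.58.1 on log2(TPM + 1), a replicate block, terms for depth and Ddx3y, the groups compared alone, dropping Rn45s, a ribosomal RNA gene, libraries over 20000000 counts and leaving out each library.

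The members and lists were chosen with earlier results of these data known. Named with values were, per comparison, up to 5 higher and 5 lower members with the largest fold change past the threshold, the genes of the 6 pairs, the most abundant member of each factor and the X and Y copies, and other members by counts and fold changes. Eif4enif1, Eif4h, Eif4g2, Eif2s1, Eif3f and the pathway genes named were picked after their values were seen. Promoter sequences are from RefSeq (GRCm38.p6).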

Additional observations from a re-analysis of the deposited data

Results flagged for a closer look

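Among 62 groups of 4 samples tested for a library far from the other 3, 6 held such a library, and chance gives about 1 group in 20. In tumors, replicate 1 had the lowest Eif3g, 445 TPM against 609 to 618 TPM in the other 3, and the lowest Eif3a, 417 TPM against 565 to 593 TPM, and it had the highest Eif4g3, 146 TPM against 106 to 109 TPM. Without tumor replicate 1 the log2 ratio of Eif4g1 to Eif4g3 between tumors and transgene-free ganglia was 0.47 (adjusted p = 0.0167 by the exact permutation test). Eif2s3y was at 27.7 TPM in replicate 2 of the transgene-free Runx1t1 +/+ ganglia and at 0 to 0.12 TPM in the other 3, and it was at 0.03 TPM in tumor replicate 4 and at 21.9 to 22.9 TPM in the other 3 tumors. In both groups the libraries with Eif2s3y were those with Ddx3y. The 54 members' share of the TPM sum was 0.617% in replicate 3 of the transgene-free Runx1t1 +/+ ganglia and 0.675% to 0.677% in the other 3.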

How the results depend on the processing

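Of 1301 recomputed fold changes of named members 1186 kept their side of the threshold, and those past it also kept their direction. Direction was not checked for fold changes that passed neither as reported nor in the other setting. Some of these changed sign, such as Eif4g3 in tumors against transgene-free ganglia, at 0.32 as reported and -0.12 at the lowest. When a library was left out, the share of all genes called moved as well. In tumors against transgene-free ganglia it was 65.1% without transgene-free Runx1t1 +/+ replicate 2, against 61.4% with all libraries. Against Th-MYCN Runx1t1 +/+ ganglia it was 21.3% without replicate 3 of these, against 34.5%. Against the 2 Th-MYCN ganglia labelled het, leaving out either leaves a single ganglion, and the result without replicate 1 is given above. Leaving out each library in turn gave 40 to 45 members called in tumors against transgene-free ganglia and 23 to 38 against Th-MYCN Runx1t1 +/+ ganglia. In the 6 comparisons within ganglia it gave 0 to 2 in Th-MYCN against transgene-free ganglia with Runx1t1 +/+, 0 to 1 with both Runx1t1 genotypes joined, 0 to 1 in het against +/+ among Th-MYCN ganglia and 0 in the other 3, and each call above 0 came without Th-MYCN Runx1t1 +/+ replicate 3. DESeq2 called 2 members in the first of these. Limma on log2(TPM + 1), chosen after seeing the data, gave 23 members against Th-MYCN Runx1t1 +/+ ganglia and reversed the fold change of Eif1 in tumors against transgene-free ganglia to -0.17. The cause of these differences was not tested. The ratio Eif4ebp1 to Eif4ebp2 between Th-MYCN and transgene-free ganglia ran from -0.68 to -0.32 (log2) when libraries were left out, and passed without transgene-free Runx1t1 +/+ replicate 2 (-0.66) or Th-MYCN Runx1t1 +/+ replicate 3 (-0.68). Eif4e to Eif4e3 ran from 0.21 to 0.73 and passed without the latter, and Eif4g1 to Eif4g3 between tumors and transgene-free ganglia ran from 0.22 to 0.47 and passed without tumor replicate 1. A replicate block gave 41, 32 and 36 members called in the 3 tumor comparisons, with 9968, 5038 and 7576 of all genes tested. Within ganglia the block called 0 members and at most 1 of all genes tested in each comparison. Whether the replicate numbers pair the samples could not be decided. Of 25 same-numbered pairs of libraries 7 had correlated deviations over 0.1. The median r was -0.014 in these 25 pairs and -0.021 in the other pairs, and the pairs share libraries. The libraries over 20000000 counts and the scaling by library size alone were also chosen after seeing the data. Depth limits the genes with few counts. The comparisons within ganglia rest on groups of 2 to 4 samples, and whether group size set the number of calls there was not tested.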
